A study of Drosophila melanogaster with 9 samples.

Results

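The spliceosome removes introns from pre-mRNA and is built on each intron from small nuclear ribonucleoproteins (snRNPs), particles of a short RNA and its proteins. A ring of Sm proteins forms the common core of the U1, U2, U4 and U5 snRNPs, U1 and U2 then select the splice sites, the U4/U6.U5 tri-snRNP joins, and the Prp19 complex accompanies activation and catalysis. Hrb98DE is an hnRNP, an abundant nuclear protein that coats nascent transcripts and can steer splice site choice.

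To follow the mRNAs of this machinery after depletion of Hrb98DE, 34 core spliceosome and snRNP genes were taken by symbol from the 17559 genes listed in the count tables, without use of their measured values. They fell into the Sm ring (7 genes), U1 (3), U2 and 3′ splice site recognition (12), the tri-snRNP (6) and the Prp19 complex with late factors (6). All 34 had a count in each library, all passed the expression filter, and SmG and l(3)72Ab are listed under their newer symbols SNRPG and Brr2 in the gene table.

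RNA sequencing was performed on S2R+ cells, a hemocyte-like Drosophila cell line from Oregon R embryos. The KD1 and KD2 cells were treated with different double-stranded RNAs (dsRNAs) against Hrb98DE, while the lacZ cells received a dsRNA against a bacterial gene, with 3 libraries in each of the 3 groups. All groups shared the handling, with growth at 25 °C, dsRNA uptake during 6 h of serum starvation and harvest on day 5 after the first treatment. The study's methods describe the replicates as biological.

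Between 13040608 and 15931035 reads were assigned to genes per library. The normalised read count of Hrb98DE (reads divided by the DESeq2 size factor of the library) lay between 6762 and 7123 in lacZ, but only between 867.3 and 1051 in KD1 and between 992.6 and 1123 in KD2. The paralog Hrb87F fell as well, with 41.7% of the lacZ mean left in KD1 and 23.3% left in KD2, so the parts of both proteins in any result cannot be told apart. Of 7 hemocyte markers 6 were expressed and NimC1 was near 0 (1.03 to 4.67 normalised reads), and their summed level was 423 to 436 CPM (reads scaled to a common library total) in lacZ, 460 to 486 in KD1 and 505 to 516 in KD2. The fat body markers stayed at or below 0.322 CPM in sum. Of the neuronal markers, elav was detected in all groups, brp was low (15.46 to 23.54 normalised reads) and nSyb was near 0 (at most 5.02). Of the muscle markers, Mef2 was detected and rose in both knockdowns (DESeq2 adjusted p = 0.029 and 0.00193), while Mhc (at most 2.87) and Act88F (0) were not expressed. The germline gene osk had 53.49 to 117.8 normalised reads. The hemocyte sum thus moved with the groups, but its genes did not move as one. Hml, Sr-CI, vkg and Pxn rose in both knockdowns, eater lay below all lacZ libraries in both (81% and 79% of the lacZ mean) without passing the test, and srp overlapped with lacZ. Their part in the results was not tested. In such bulk libraries, fewer cells of a type and less RNA per cell cannot be told apart.

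In the control cells the Sm ring held the highest mRNA levels. Expressed as normalised reads per kilobase of exon, SmF (2686), SmB (2525), SmG (2262) and SmE (2218) ranked at the top of the 34 genes, while SmD2 (1965), SmD3 (1337) and SmD1 (841.7) were lower. The Sm proteins stand in equal number in the ring, yet their mRNA levels covered a 3.19-fold range. The median of the Sm ring was 2218, against 730.5 for U1, 679.1 for U2 and 3′ splice site recognition, 496 for the tri-snRNP, 463.6 for the Prp19 complex with late factors and 308 for all 7244 genes with an annotated length.

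The remaining genes with high levels had other roles. U2af50, which binds the polypyrimidine tract of the 3′ splice site, reached 2034, and Sf3b6, a small SF3b subunit, reached 1780. Prp19, the ubiquitin ligase that gives its complex the name, stood at 1719 and Sf3b3 at 1559. The lowest level was that of pea (262.4), the fly counterpart of the helicase Prp22 that releases spliced mRNA, which left a 10.2-fold range over all 34 genes. Of the 33 neighbouring pairs in this order, 24 had overlapping ranges of the lacZ libraries and 9 did not, so the order is fixed only in part. The level of Sf3b3 is uncertain, since 2508 of its 4329 exon bases also lie in the same-strand gene lncRNA:CR45184.

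**Figure D1:**
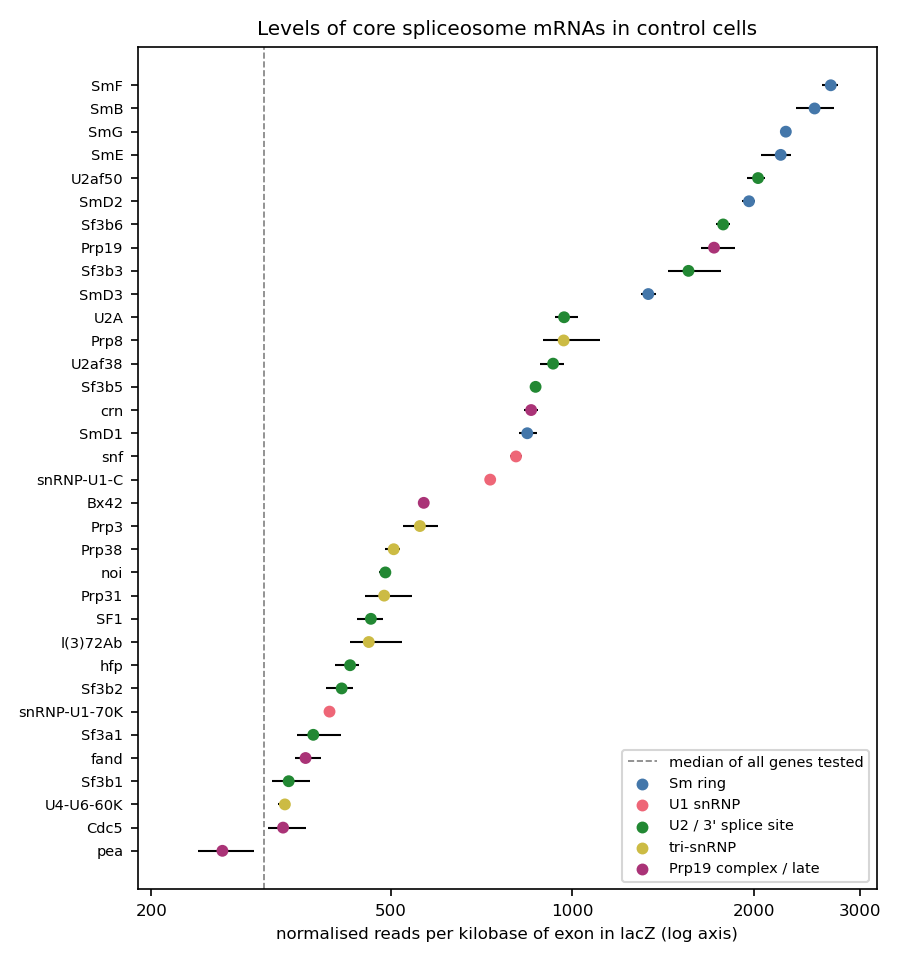
Normalised reads per kilobase of exon in lacZ (log axis) for the 34 genes, as the mean (point) and the range (line) of 3 libraries, coloured by subcomplex. The Sm proteins take 4 of the top places from SmF (2686) to SmE (2218), and pea (262.4) alone lies left of the dashed median of all genes (308).

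Depletion of Hrb98DE left most of these mRNAs near their control level. A gene was past the threshold at a DESeq2 adjusted p under 0.05 with a fold change above 1.3. In KD1, 2 of 34 genes (5.88%) were past it, against 7.37% of all 7406 genes tested, and in KD2 again 2 of 34, against 8.13%. In both comparisons these were SmD3, which rose (background 2.24% higher in KD1 and 2.93% in KD2), and SF1, which fell (background 5.13% and 5.2% lower). Without the fold requirement, 5 of 34 genes (14.7%) were called at an adjusted p under 0.05 in KD1, against 21.2% of all genes, and 3 of 34 (8.82%) in KD2, against 23.6%. These shares were below the background in both comparisons in this DESeq2 fit, but not in every fit with all libraries. With replicate number as a block they were above it (8.82% in each, against 7.13% in KD1 and 7.55% in KD2). In KD1 they were also above it with no filter on low counts (14.7% against 11.7%) and with exon length corrected (23.5% against 22.7%). Without lacZ replicate 2 the share in KD1 was above it (26.5% against 22.6%), as described further on.

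By direction, KD1 had 2 genes that rose (SmD3, noi) and 3 that fell (SF1, snRNP-U1-70K, hfp), beside a background of 9.71% higher and 11.5% lower. KD2 had 1 that rose (SmD3) and 2 that fell (SF1, snRNP-U1-70K), beside 11.3% and 12.3%. The median log2 fold change of the 34 genes was 0.06 in KD1 and 0.03 in KD2, where the median of all genes was 0.00 in each. KD1 and KD2 were compared with the same lacZ libraries, so their values are set side by side and are not independent of each other.

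With all libraries in the fit, most of the intervals lay within 1.3-fold. The 95% interval of the fold change lay wholly within 1.3-fold in either direction for 29 of 34 genes in KD1, where 66.8% of all genes did so, and for 30 of 34 in KD2, where 65.8% did. The intervals of SmD3, SF1, snRNP-U1-70K and Sf3b3 reached beyond 1.3-fold in both comparisons and that of hfp in KD1. For Sf3b3, whose libraries spread most, the upper bound was 0.40 on the log2 scale in KD1 and 0.41 in KD2. The shares are not matched for read count, on which the width of an interval depends. The intervals also do not cover the dependence on single libraries described further on. Prp8 in KD2 had an upper bound of 0.30. Its estimate was 0.31 with lacZ replicate 2 and KD2 replicate 2 left out.

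**Figure D2:**
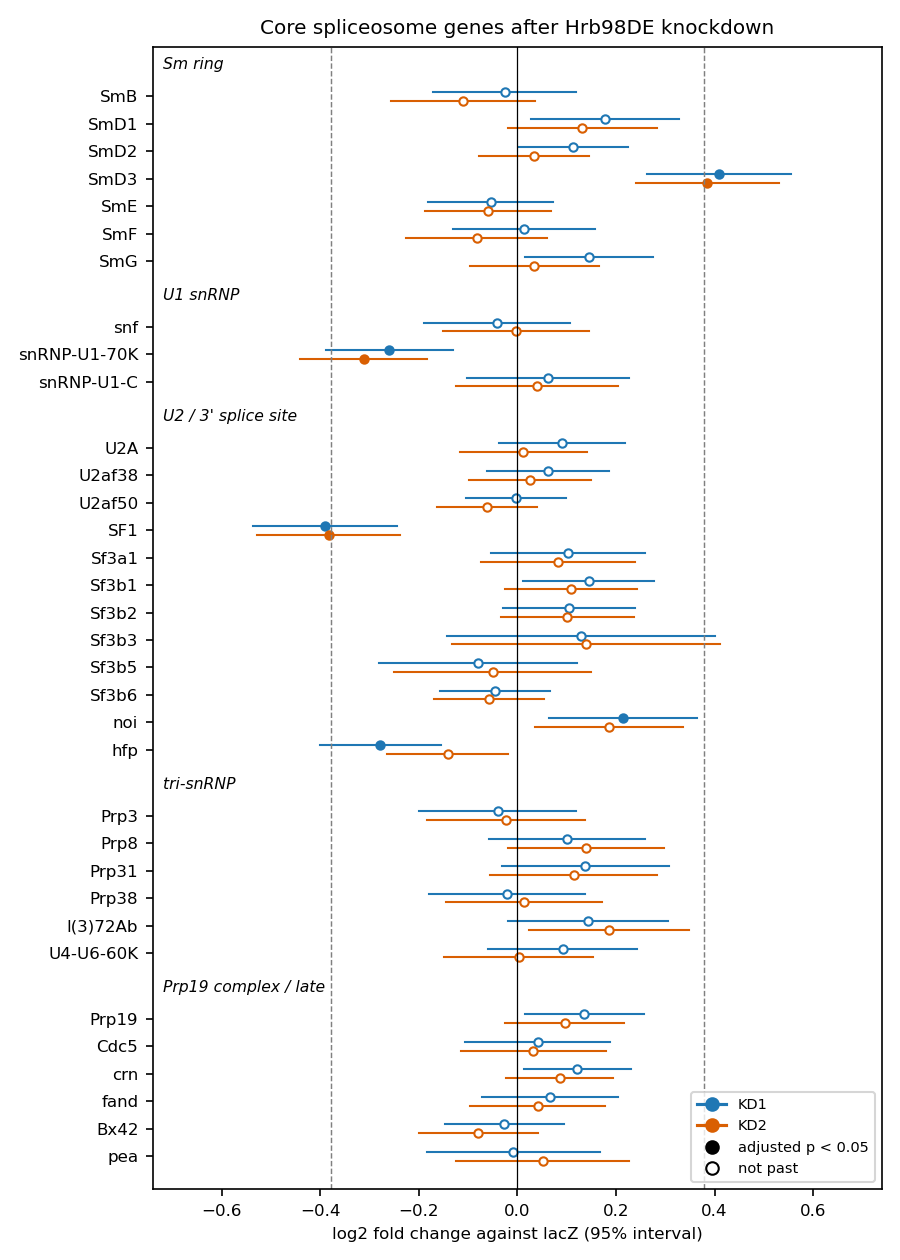
Log2 fold change against lacZ of each of the 34 genes with its 95% interval, for KD1 (blue) and KD2 (orange), grouped by subcomplex. Filled points have a DESeq2 adjusted p under 0.05 and dashed lines mark 1.3-fold. Most intervals lie between the dashed lines, SmD3 stands to the right and SF1 and snRNP-U1-70K to the left.

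Within the Sm ring, SmD3 alone passed the DESeq2 test, and edgeR also called SmD1 in KD1 (adjusted p under 0.05). SmD3 (FBgn0023167, chromosome 2R, 12168731 to 12170003 of BDGP6, plus strand) encodes a ring subunit whose tail is arginine-methylated before assembly. Its normalised read counts were 992.1, 1023 and 968.7 in lacZ, 1387, 1223 and 1354 in KD1 and 1225, 1255 and 1419 in KD2. All knockdown libraries lay above all lacZ libraries. On the log2 scale this was a rise of 0.41 (SE 0.07, DESeq2 adjusted p = 1.21e-06) for KD1 and of 0.39 (SE 0.07, DESeq2 adjusted p = 4.98e-06) for KD2. SmD3 was thus at 132.8% and 130.7% of the lacZ mean, close to the 1.3-fold line. It fell below that line in KD1 without KD1 replicate 1 (0.37) and in KD2 without KD2 replicate 4 (0.32) or lacZ replicate 3 (0.37), with the adjusted p under 0.05 in each of these fits. An antisense gene, asRNA:CR46194, covers 279 of its 744 exon bases on the other strand and was not analysed here.

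The other Sm genes did not follow SmD3. SmF, the Sm gene with the highest level, was counted 1262, 1288 and 1213 times in lacZ, 1337, 1291 and 1169 times in KD1 and 1083, 1254 and 1218 times in KD2. These ranges overlapped, and the log2 fold changes were 0.01 ± 0.07 (SE) and -0.08 ± 0.07 (SE), with adjusted p-values of 0.925 and 0.462 (DESeq2). SmD1, SmD2 and SmG lay above all lacZ libraries in KD1 by 0.18, 0.11 and 0.15 on the log2 scale, without passing the test after adjustment (adjusted p = 0.0842, 0.147 and 0.103, DESeq2). In KD2 only SmD1 of these was again above all lacZ libraries (0.13, adjusted p = 0.227). SmB and SmE were at -0.03 and -0.05 on the log2 scale in KD1 and at -0.11 and -0.06 in KD2, within the spread of the libraries. The median of the ring was 0.11 in KD1 and 0.03 in KD2.

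SmD3 lies in a short stretch of chromosome 2R that holds other genes of the set. Prp8 lies 5732 bases to one side and SmF 13840 bases to the other side of it, both on the opposite strand. Neither of these neighbours was called by DESeq2 with all libraries and no length correction. Prp8 was called in KD1 once each library was corrected for exon length (0.20, DESeq2 adjusted p = 0.0328).

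Among the U1 proteins, snRNP-U1-70K decreased. snRNP-U1-70K (FBgn0016978, chromosome 2L, 6968711 to 6971737, minus strand) encodes the subunit that holds the first stem loop of U1 RNA and contacts splicing regulators. Its normalised read counts were 1152, 1187 and 1157 in lacZ, 1012, 927.5 and 980.1 in KD1 and 935.7, 897.8 and 981.9 in KD2. All 6 knockdown libraries were below all lacZ libraries, which differed from each other by little. This left 83.5% of the lacZ mean for KD1 and 80.5% for KD2, short of a 1.3-fold decrease. The log2 values were -0.26 (SE 0.07, DESeq2 adjusted p = 0.000898) and -0.31 (SE 0.07, DESeq2 adjusted p = 3.53e-05).

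The other U1 proteins did not move with it. In flies the product of snf serves in both U1 and U2, where vertebrates use separate proteins. The normalised read count of snf was 657.1, 688.1 and 674.5 in lacZ, 681.7, 657.2 and 623.3 in KD1 and 641.3, 708.1 and 668.6 in KD2. The groups overlapped, at log2 fold changes of -0.04 ± 0.08 and 0.00 ± 0.08 (SE). snRNP-U1-C, which steadies the pairing of U1 with the 5′ splice site, was at 0.06 and 0.04.

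**Figure D3:**
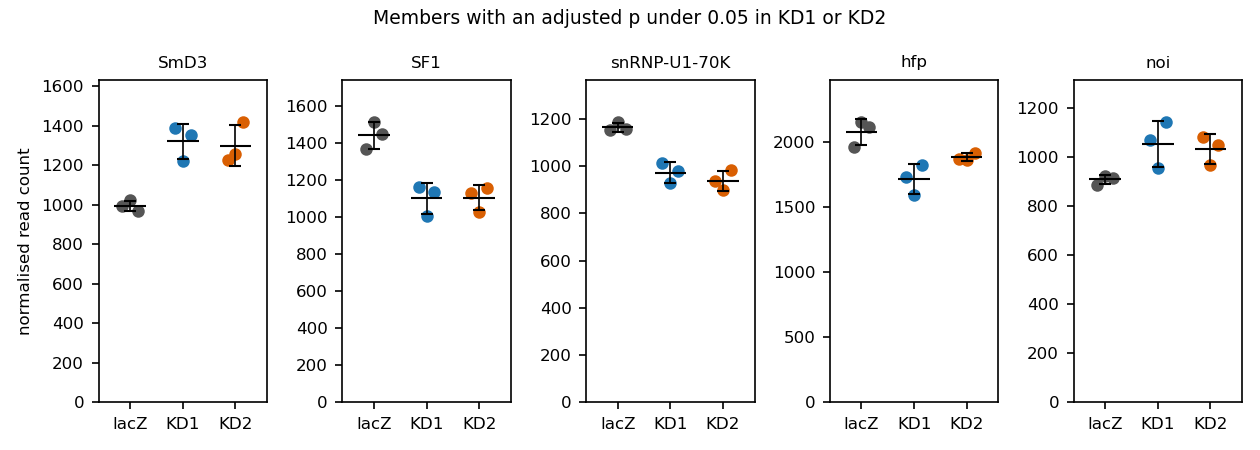
Normalised read counts of the 5 genes with a DESeq2 adjusted p under 0.05 in KD1 or KD2, with single libraries as points and the mean with SD (n = 3) as bars. SmD3 and noi lie higher in the knockdown libraries (SmD3 at 1223 to 1419 against 968.7 to 1023), and SF1, snRNP-U1-70K and hfp lie lower.

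In the group that recognises the branch site and the 3′ splice site, SF1 decreased in both knockdowns. SF1 (FBgn0025571, chromosome 3R, 17540421 to 17545148, plus strand) is the protein that first binds the branch site and leaves when U2 arrives. Its normalised read counts were 1366, 1511 and 1444 in lacZ, 1159, 1003 and 1136 in KD1 and 1130, 1027 and 1156 in KD2. Even the lowest lacZ library stood above every knockdown library. SF1 fell to 76.3% of the lacZ mean in KD1 (log2 -0.39, SE 0.07, DESeq2 adjusted p = 3.81e-06) and to 76.7% in KD2 (log2 -0.38, SE 0.07, DESeq2 adjusted p = 5.29e-06). Without lacZ replicate 2 the changes were -0.35 in each and fell short of 1.3-fold, as they did in KD1 without KD1 replicate 3 (-0.33) and in KD2 without KD2 replicate 2 (-0.33). The adjusted p stayed under 0.05 in each of these fits.

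U2af50, the partner of SF1 on the polypyrimidine tract, showed no such decrease. Its normalised read counts of 3400, 3433 and 3213 in lacZ overlapped with 3446, 3394 and 3184 in KD1 and with 3224, 3156 and 3242 in KD2. The log2 fold changes were 0.00 ± 0.05 and -0.06 ± 0.05 (SE), and the 95% intervals ran from -0.10 to 0.10 and from -0.16 to 0.04. U2af38, which reads the AG at the end of the intron, was at 0.06 and 0.03.

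Of the genes with a DESeq2 adjusted p under 0.05 in one comparison, hfp and noi are described here after their values were seen. hfp is the fly counterpart of PUF60, which helps U2AF at weak 3′ splice sites. Its counts were 1962, 2150 and 2115 in lacZ, 1726, 1591 and 1820 in KD1 and 1869, 1862 and 1915 in KD2. The 3 groups did not overlap, with KD1 lowest and KD2 between KD1 and lacZ. KD1 differed from lacZ by -0.28 (SE 0.06, DESeq2 adjusted p = 0.000161) and KD2 by -0.14 (SE 0.06, DESeq2 adjusted p = 0.0857) on the log2 scale. KD1 differed from KD2 by -0.14 (SE 0.06), which did not pass the adjustment over all genes (DESeq2 adjusted p = 0.457), so a difference between the dsRNAs was not shown.

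The gene noi (no intermediate) encodes the SF3a subunit that corresponds to SF3A3. It was counted 888.8, 923.5 and 916.7 times in lacZ, 1069, 956.2 and 1144 times in KD1 and 1085, 967.9 and 1051 times in KD2. All knockdown libraries were higher, with KD1 replicate 3 and KD2 replicate 2 closest to lacZ. KD1 stood 0.21 above lacZ on the log2 scale (SE 0.08, DESeq2 adjusted p = 0.0284) and KD2 0.19 (SE 0.08, DESeq2 adjusted p = 0.061). The call of noi in KD1 was lost without KD1 replicate 1 (0.21), KD1 replicate 4 (0.15), lacZ replicate 1 (0.20) or lacZ replicate 3 (0.22). With all libraries, it was also lost with replicate number as a block (0.17, DESeq2 adjusted p = 0.447). In KD2 a call was gained without KD2 replicate 2 (0.23) and, with all libraries, by edgeR (adjusted p = 0.0434) and with exon length corrected (DESeq2 adjusted p = 0.0373). Its exons share 103 bases with PolZ2 on the other strand, whose mean count of 157.1 in lacZ compares with 267.9 (KD1) and 283.9 (KD2).

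The other SF3 subunits and U2A were not called by DESeq2 with all libraries and no length correction. U2A, the U2 protein that partners snf, had log2 fold changes of 0.09 in KD1 and 0.01 in KD2. In SF3b, the values were 0.14 and 0.11 for Sf3b1, which holds the branch site, 0.11 and 0.10 for Sf3b2, -0.08 and -0.05 for Sf3b5 and -0.05 and -0.06 for Sf3b6. For Sf3b3 they were 0.13 and 0.14, with an SE of 0.14 in each comparison. In SF3a, they were 0.10 and 0.08 for Sf3a1, next to 0.21 and 0.19 for noi. Apart from noi in KD1, none of these values passed the test after adjustment (DESeq2).

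None of the 6 tri-snRNP genes was called by DESeq2 with all libraries and no length correction, although most lay slightly above lacZ. With exon length corrected, Prp8 in KD1 and l(3)72Ab in both knockdowns were called. At an unadjusted p under 0.05 there was 0 of 6 in KD1 (background 31.7%) and 1 of 6 in KD2 (background 33.2%), and edgeR called 0 in each. Prp8, the large U5 protein at the catalytic centre, was counted 6647, 8280 and 6670 times in lacZ, 7808, 7478 and 7869 times in KD1 and 8632, 7296 and 7854 times in KD2. A single lacZ library, replicate 2, reached into the range of the knockdown libraries, and the others lay below all of them. The mean was higher by 0.10 in KD1 (SE 0.08, DESeq2 adjusted p = 0.42) and by 0.14 in KD2 (SE 0.08, DESeq2 adjusted p = 0.223) on the log2 scale. The gene l(3)72Ab, which encodes the Brr2 helicase that unwinds U4 from U6, had the same pattern, at 2885, 3493 and 2862 in lacZ, 3476, 3198 and 3535 in KD1 and 3835, 3199 and 3477 in KD2. The log2 values were 0.14 and 0.19 (DESeq2 adjusted p = 0.222 and 0.0873).

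The U4/U6 proteins varied around lacZ. Their log2 fold changes were 0.14 and 0.11 for Prp31, 0.09 and 0.00 for U4-U6-60K and -0.04 and -0.02 for Prp3. Prp38, which in yeast is needed for activation of the assembled spliceosome, was at -0.02 and 0.01. The median of the 6 genes was 0.10 in KD1 and 0.06 in KD2.

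The Prp19 complex with the late factors had no call either. At an unadjusted p under 0.05 there were 2 of 6 genes (Prp19 and crn) in KD1, near the background of 31.7%. In KD2 there were 0 of 6 (background 33.2%), and edgeR called 0 in each. Prp19 was counted 2872, 3266 and 2925 times in lacZ, 3426, 3176 and 3360 times in KD1 and 3242, 3091 and 3358 times in KD2. Here again lacZ replicate 2 lay within the knockdown range and the other lacZ libraries below it. The means were higher by 0.14 (SE 0.06, DESeq2 adjusted p = 0.102) and 0.10 (SE 0.06, DESeq2 adjusted p = 0.278) on the log2 scale. The scaffold gene crn (crooked neck) was above lacZ in every knockdown library by 0.12 and 0.09 without passing the test (adjusted p = 0.105 and 0.282, DESeq2). The values were 0.04 and 0.03 for Cdc5, 0.07 and 0.04 for fand (the counterpart of Syf1), -0.03 and -0.08 for Bx42 (SKIP) and -0.01 and 0.05 for pea.

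Counting groups that do not overlap gave a similar picture. In KD1, 7 of 34 genes lay wholly above lacZ and 3 wholly below, where 39.5% of all genes were separated (19.2% above, 20.2% below). In KD2 it was 4 above and 3 below, where 38.1% were separated (18.6% above, 19.5% below). The genes above lacZ in both were SmD1, SmD3, noi and crn, and those below were snRNP-U1-70K, SF1 and hfp.

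These counts depended on a few libraries, in which the long mRNAs of the set stood apart. In lacZ replicate 2, 30 of 34 genes were higher than in the other lacZ libraries, and all 12 genes with at least 2500 exon bases were. The median log2 ratio to the other lacZ libraries was 0.19 for these 12 and 0.06 for the 22 shorter ones. In KD2 replicate 2 all 12 long genes were the lowest of their group (median -0.125), and so they were in KD1 replicate 3 (median -0.13). Across the 34 genes the ratio followed the log2 of exon length with a Pearson r of 0.706 in lacZ replicate 2, -0.63 in KD2 replicate 2 and -0.582 in KD1 replicate 3. Spearman's rho was 0.644, -0.633 and -0.532 over the 34 genes, and 0.158, -0.149 and -0.184 over all 7244 genes with a length. These values describe genes that share the libraries. For the tri-snRNP, which holds the longest mRNAs of the set (Prp8 and l(3)72Ab), the summed count of lacZ replicate 2 was 112.5% of the lacZ mean, above 93.4% and 94.1% in the other lacZ libraries. The knockdown libraries were at 102.4% to 109.1% in KD1 and at 100.3% to 117% in KD2, with KD1 replicate 3 and KD2 replicate 2 lowest in their groups.

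**Figure D4:**
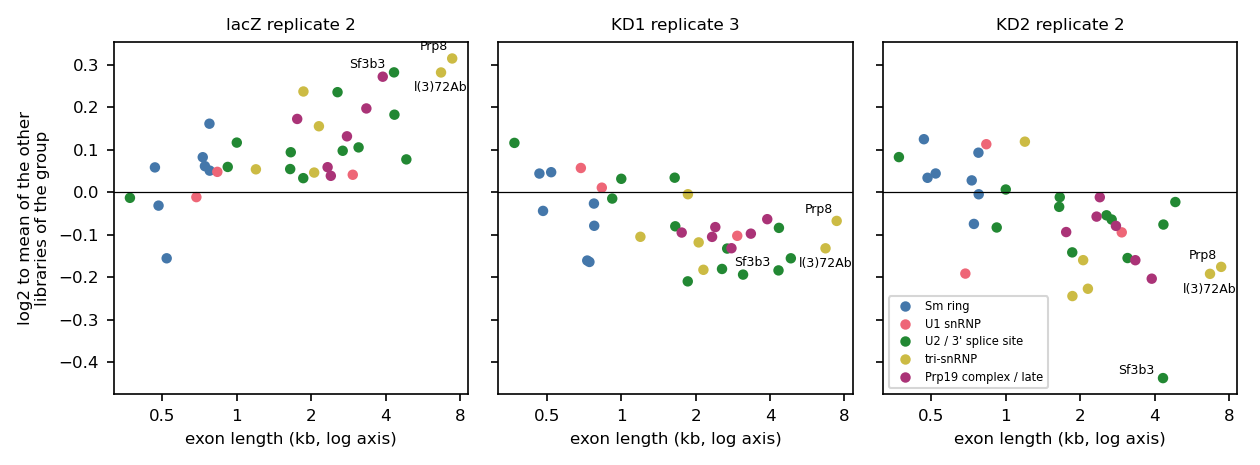
Log2 ratio of 1 library to the mean of the other libraries of its group, plotted against exon length (kb, log axis), for each of the 34 genes in lacZ replicate 2, KD1 replicate 3 and KD2 replicate 2. The ratio climbs with length in lacZ replicate 2 (Pearson r of 0.706) and declines in KD2 replicate 2 (-0.63), where Sf3b3 lies lowest.

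Without lacZ replicate 2, 9 of 34 genes had an adjusted p under 0.05 in KD1 (22.6% of all genes) and 6 of 34 in KD2 (24.8%). The genes gained were Prp8, Prp19 and l(3)72Ab in both and Sf3b1 in KD1, all higher in the knockdown. Prp8 was then higher by 0.21 in KD1 (DESeq2 adjusted p = 0.00662, from 0.000172 to 0.806 over all alternatives) and by 0.25 in KD2 (adjusted p = 0.000851, from 2.32e-07 to 0.681). For Prp19 these were 0.20 (DESeq2 adjusted p = 0.00771, from 0.0016 to 0.464) and 0.15 (adjusted p = 0.0409, from 0.00658 to 0.832). Without KD2 replicate 2, 6 of 34 genes were called in KD2 (24.3% of all genes), with l(3)72Ab, noi and Sf3b3 gained. With both libraries left out, an alternative chosen after seeing the data, 11 of 34 genes were called in KD1 (26.2% of all genes) and 11 in KD2 (28.9%). Of the 11 genes in each, 8 and 9 were higher, and Prp8, l(3)72Ab, Prp31, Prp19, Sf3b1 and Sf3b3 were among them in both. A correction of each library for exon length, with none left out, gave 8 genes in KD1 (22.7% of all genes), with l(3)72Ab, Prp8 and Sf3b1 gained, and 5 in KD2 (25.2%), with l(3)72Ab and noi gained. As a share of the 34 genes, the counts without lacZ replicate 2 were 26.5% in KD1 and 17.6% in KD2, those with both libraries left out 32.4% in each, and those with the length correction 23.5% and 14.7%. The members' share was thus above that of all genes in KD1 without lacZ replicate 2 and in both comparisons with both libraries left out, close to it in KD1 with the length correction, and below it in KD2 with the length correction or without lacZ replicate 2. Whether the lower or the higher count describes the knockdown cannot be told from 3 lacZ libraries. SmD3, SF1 and snRNP-U1-70K were called in each of these fits.

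**Figure D5:**
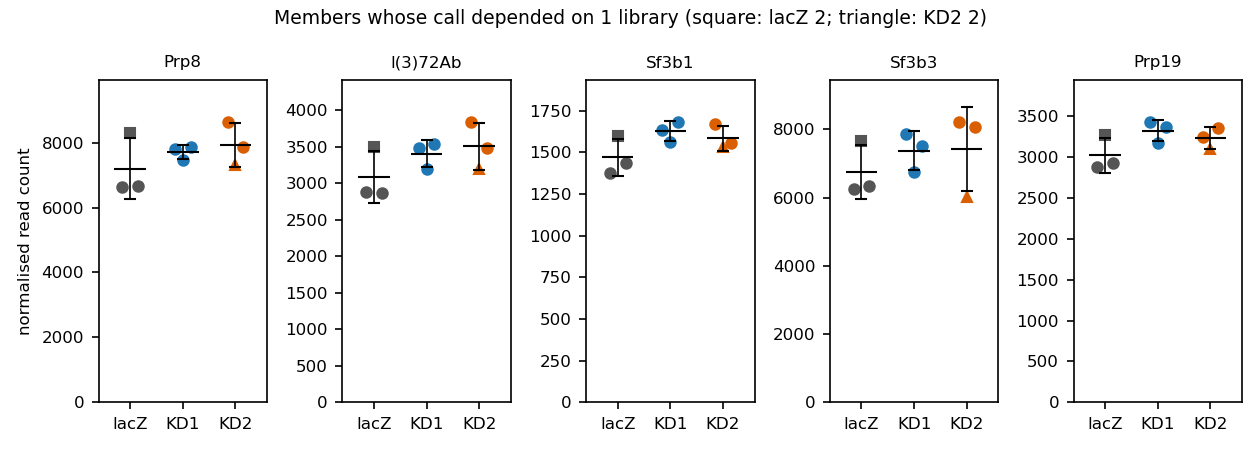
Normalised read counts of 5 genes named after their values were seen, because leaving out a library gave them an adjusted p under 0.05. Points are libraries (square for lacZ replicate 2, triangle for KD2 replicate 2) and bars are the mean with SD (n = 3). In lacZ, replicate 2 lies above the other libraries for each gene, for Prp8 at 8280 against 6647 and 6670.

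The dsRNAs were also compared directly. Between KD1 and KD2, 0 of 34 genes were past the threshold (background 0.0135%) and 0 had an adjusted p under 0.05 (background 0.162%) with DESeq2, and edgeR also gave 0. At an unadjusted p under 0.05 there was 1 of 34 genes, hfp, against 5.18% of all genes, and 22 of 34 genes received no adjusted p because of independent filtering. The differences ran from -0.14 (hfp) to 0.11 (SmG) on the log2 scale. The groups did not overlap for SmD2 and U2A, which were higher in KD1, and for hfp, which was lower, where 14.1% of all genes were separated. All 34 intervals lay within 1.3-fold, where 80.7% of all genes did so.

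Beyond the 34 genes, 43 further spliceosome and snRNP assembly genes were listed and 40 passed the filter. The other 3 (CG17768, CG6015 and Tgs1) were at 0 in all libraries, with every exon base also covered by a gene on the same strand. In KD1, 4 of 40 had an adjusted p under 0.05 (3 rose, 1 fell), and in KD2 5 of 40 (3 rose, 2 fell), below the background of 21.2% and 23.6%. CG7564, the fly relative of the U1-associated yeast protein Luc7, was the single gene past the threshold. Its normalised read counts were 1920, 1920 and 2056 in lacZ, 1384, 1285 and 1433 in KD1 and 1373, 1308 and 1335 in KD2. The groups did not overlap and differed by -0.52 in KD1 (SE 0.06, DESeq2 adjusted p = 2.75e-15) and -0.55 in KD2 (SE 0.06, DESeq2 adjusted p = 4.36e-17) on the log2 scale. With exon length corrected the differences were -0.39 in KD1, close to the 1.3-fold line, and -0.51 in KD2. Of the 10443 exon bases of CG7564, 7501 are shared with an annotated element on the other strand. The other gene that fell, named after its value was seen, was LSm7 of the U6-binding LSm ring in KD2 (-0.23, adjusted p = 0.0254, DESeq2).

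The 3 genes that rose, also named after their values were seen, were all among the 7 snRNP assembly genes tested, where 9.71% of all genes rose in KD1 and 11.3% in KD2. The products of csul (the PRMT5 methyltransferase), vls (the counterpart of MEP50) and icln work together before assembly, where they methylate Sm proteins such as SmD3 and hand them to the SMN complex. icln was counted 616, 626.7 and 591.6 times in lacZ, 784.3, 723.1 and 798.5 times in KD1 and 729.1, 693.7 and 750.8 times in KD2. All its knockdown libraries were above lacZ, by 0.33 in KD1 (DESeq2 adjusted p = 0.000196) and 0.24 in KD2 (adjusted p = 0.0083) on the log2 scale. For vls the rise was 0.27 (DESeq2 adjusted p = 0.00648) and 0.25 (adjusted p = 0.0104), and for csul 0.22 (DESeq2 adjusted p = 0.0391) and 0.21 (adjusted p = 0.0483).

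None of the 3 reached 1.3-fold, and single libraries decided some of these calls. With replicate number as a block, none of the 3 was called in KD1 or KD2. The DESeq2 adjusted p was then 0.0784 and 0.367 for icln, 0.255 and 0.244 for vls and 0.259 and 0.423 for csul. In KD1 the call of csul was lost without any of KD1 replicate 1 (0.24), 3 (0.24) or 4 (0.17) or lacZ replicate 1 (0.17) or 3 (0.20), and that of vls without KD1 replicate 4 (0.25) or lacZ replicate 1 (0.21). In KD2 that of vls was lost without KD2 replicate 1 (0.23) or 4 (0.22) or lacZ replicate 1 (0.20), and that of icln without KD2 replicate 1 (0.24) or 4 (0.22) or lacZ replicate 3 (0.22). That of csul in KD2 was lost without any KD1 library (0.21), without KD2 replicate 1 (0.14) and without lacZ replicate 1 (0.16) or 3 (0.19). Of the SMN complex itself, the log2 fold changes were 0.05 and -0.08 for Smn, 0.15 and 0.10 for Gem2 and 0.14 and 0.09 for Gem3, none of them called. The snRNA export adaptor Phax lay above lacZ in all knockdown libraries by 0.23 and 0.21 (DESeq2 adjusted p = 0.0588 and 0.0918). Over the 7 assembly genes, the median was 0.216 in KD1 and 0.205 in KD2.

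The RNA components were measured only in part, since the libraries were made from polyadenylated RNA and snRNAs carry no poly(A) tail. Of 31 snRNA genes listed, 3 were at 0 in all libraries and 5 passed the filter, and snRNA:U2:34ABa held 58.5% of the snRNA reads. It was counted 533.7, 638 and 460 times in lacZ, 354, 362 and 306.9 times in KD1 and 272, 270.1 and 292.7 times in KD2. All knockdown libraries were lower, with differences of -0.67 in KD1 (SE 0.12, DESeq2 adjusted p = 1.92e-07) and -0.97 in KD2 (SE 0.12, DESeq2 adjusted p = 1.63e-14) on the log2 scale. snRNA:U12, of the minor spliceosome, was counted 167.5, 214.6 and 141.5 times in lacZ, 166.7, 153.8 and 144.4 times in KD1 and 116.8, 119.6 and 125.3 times in KD2. Its KD1 range overlapped with lacZ (-0.18, DESeq2 adjusted p = 0.466) and its KD2 range lay below (-0.54, adjusted p = 0.00469). The call in KD2 was lost without lacZ replicate 2 (-0.36). With all libraries, it was also lost with replicate number as a block (-0.57, DESeq2 adjusted p = 0.095). It was kept with the block and the length correction together (DESeq2 adjusted p = 0.0251). U2 is encoded by near-identical gene copies that share reads, so these values are uncertain for single copies and do not measure the mature snRNA.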

How the data were processed

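Stranded poly(A) libraries were sequenced in pairs. Per the labels the authors aligned reads with STAR 2.5.1b to BDGP6 and counted them with featureCounts (Subread 1.4.6-p2), and the deposited files hold raw read counts per gene, unpooled. Genes lying wholly under a same-strand neighbour were listed at 0 in 98.3% of cases (35.7% for the other strand), so counting used strand. Symbols matched 98.26% of identifiers, and exon lengths came from Ensembl release 115.

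Genes with a mean CPM above 1 over all 9 libraries (7406) were fitted with DESeq2 1.42.0 (R 4.3.3) with a group factor and no covariate, using the Wald test, independent filtering (alpha 0.1), Benjamini-Hochberg adjustment and the thresholds of the study. All p-values are two-sided. The gene groups and lists were chosen with earlier results of these data known, so no set test was run. Values per library are given for genes past the threshold in KD1 or KD2, or with an adjusted p under 0.05 in both, and for the gene with the highest level in each subcomplex. Other list genes are named if past the threshold, and those outside this rule are stated as such. Alternatives were edgeR 4.0.16, TMM, other filters, the fold prior, other fold limits, exon length correction, a replicate block and leaving out libraries. In simulated KD1 and lacZ counts for 7406 genes, DESeq2 recovered 98% of 100 changes of 0.5 (log2) and 100% of 100 changes of 1, with 14 false calls among 212. The changes of the 34 genes were smaller (-0.39 to 0.41 in KD1), and the simulated libraries held no shift with exon length. The recovery of changes of that size was therefore not measured.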

Additional observations from a re-analysis of the deposited data

How the results depend on the processing

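SmD3, SF1 and CG7564 kept their direction and an adjusted p under 0.05 in KD1 and KD2 in every alternative run (DESeq2 or edgeR), but the 1.3-fold limit decided the counts past the threshold. Of 34 genes, 2 were past it in KD1 and in KD2, against 0 in each with the fold prior or a 1.5-fold limit, and 1 in each with exon length correction (SmD3) or with both libraries that stood apart left out (SmD3). Without a fold limit, 5 were past it in KD1. Leaving out 1 library gave 1 to 2 in each. Genes with an adjusted p under 0.05 numbered 5 in KD1, against 8 with exon length correction, 11 with both libraries left out and 4 to 9 without 1 library, and 3 in KD2, against 5, 11 and 3 to 6. In the further genes they numbered 4 in KD1, against 7, 8 and 2 to 7, and 5 in KD2, against 8 with edgeR, 9 with both left out and 1 to 8. The share of all genes moved too. In KD1 it was 21.2%, against 22.7% with exon length correction, 26.2% with both left out and 11.9% to 22.6% without 1 library. In KD2 it was 23.6%, against 25.2%, 28.9% and 14.5% to 24.8%, and 26.9% with edgeR. The median log2 fold change of the 34 genes in KD2 moved from 0.0333 to 0.0812 with both left out.

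Whether replicate numbers pair the libraries could not be told. The deviations from the group means correlated between -0.336 and 0.158 for same-numbered libraries and between -0.32 and 0.327 for others. The libraries that stood apart entered both ranges, so this check cannot exclude batches shared by number. With the replicate block, 1 gene (SF1) was past the threshold in KD1 and in KD2, also with the length correction. An adjusted p under 0.05 was held by 3 genes in KD1 (2 with the length correction), and by 1 further gene in KD1 and in KD2, where the block lowered the share of all genes too, to 7.13% and 7.55%. The block moved snRNP-U1-70K in KD1 to an adjusted p of 0.0633 (DESeq2), where all alternatives ranged from 0.000746 to 0.0984. The causes of these shifts were not tested.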
